A study of Mus with 18 samples.

Results

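The 10 genes described here belong to the tumor necrosis factor (TNF) system and were followed across control, lipopolysaccharide (LPS) and LPS with moringa isothiocyanate-1 (MIC-1), an isothiocyanate from moringa seed. They were Tnf, Tnfsf9, Tnfsf10, Tnfrsf1a, Tnfrsf1b, Tnfrsf12a, Cd40, Fas, Tnfaip2 and Tnfaip3, chosen by gene symbol, and all 10 were listed among the 21401 symbols of each expression table. RNA had been sequenced from cultures labelled C2C12, a mouse myoblast cell line, and from the gastrocnemius muscle of wild type C57BL/6 male mice. Each of the 6 groups had 3 libraries, 18 in all. The labels gave a saline vehicle for the controls, whereas the text of the study names ethanol for cells and DMSO for mice. C2C12 LPS cultures received 1 µg/mL LPS, a bacterial cell wall component that activates innate immune cells, and C2C12 LPS-MIC-1 cultures received 1 µg/mL LPS with 10 µM MIC-1 for 24 h per the labels, whereas the text of the study names a lower MIC-1 concentration for the sequenced cells. LPS mice received 10 mg/kg LPS by intraperitoneal injection, and LPS-MIC-1 mice received in addition 80 mg/kg MIC-1 by daily gavage for 3 days before LPS, with 10% DMSO named on their labels. Muscle was collected 16 h after LPS. The age of the mice was not given in the sources used here, and C2C12 is a single established line. No group received MIC-1 without LPS, so MIC-1 alone could not be compared with control.

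TNF is a cytokine made above all by activated macrophages. It binds TNFR1 (Tnfrsf1a), found on most cell types, and TNFR2 (Tnfrsf1b), found mainly on immune and endothelial cells, and TNFR1 can start NF-κB signalling or cell death. Tnfaip3 encodes A20, a ubiquitin-editing enzyme that NF-κB induces and that dampens NF-κB, and Tnfaip2 is another gene induced by TNF. Tnfsf9 (4-1BB ligand) and Tnfsf10 (TRAIL) are ligands of the same superfamily, while Cd40, Fas and Tnfrsf12a (Fn14, the receptor of the cytokine TWEAK) are receptors of it. In skeletal muscle, TNF and the TWEAK and Fn14 pair are known for their part in wasting and in regeneration after injury.

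Values were FPKM, the fragments of a transcript scaled by its length and by the size of the library, which allow levels of different genes to be set side by side. Comparisons used limma on log2(FPKM + 0.1), and a log2 fold change is a difference of mean log2(FPKM + 0.1), which understates the change of genes near 0. A gene was called when its Benjamini-Hochberg adjusted p over all genes tested was under 0.001 in C2C12 or under 0.05 in muscle, and its log2 fold change exceeded 1 in size. Genes with a mean of 1 FPKM or less over the 9 libraries of an experiment were not tested. Of the 10 genes, 9 passed that filter in C2C12 (all but Tnfsf10) and 7 in muscle (all but Tnf, Tnfsf9 and Cd40). A two-sided exact permutation test of 3 libraries against 3 cannot give a p below 0.1, and it gave 0.1 for each gene whose groups did not overlap. The labels did not say whether C2C12 replicates were separate cultures, so these p-values measure only the spread between the deposited libraries, which may be technical.

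The C2C12 libraries did not all carry the genes of the labelled cells. Macrophage markers, of which 20 of 22 were found, summed to between 11442 and 11475 FPKM in the libraries labelled control and to between 8570 and 8834 FPKM in those labelled LPS. The same sum was 321 FPKM in LPS-MIC-1 replicate 1 and 90.0 and 104 FPKM in replicates 2 and 3. The 11 myogenic markers summed to between 0.187 and 0.477 FPKM in control, to between 0.328 and 2.53 FPKM in LPS and to between 864 and 1117 FPKM in LPS-MIC-1. Myod1, the myogenic transcription factor, was listed at 0 in 2 of the 3 control and 2 of the 3 LPS libraries, and at 49.5 to 56.7 FPKM in LPS-MIC-1. Cell type and treatment therefore cannot be told apart in any C2C12 comparison that involves LPS-MIC-1. The libraries labelled control and LPS held macrophage markers, with myogenic markers near 0. LPS against control is thus not a comparison of cells with myoblast markers. The name C2C12 and the group names below are those of the labels. In bulk samples like these, fewer cells of a type and less RNA per cell cannot be told apart either.

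LPS-MIC-1 replicate 1 stood apart from replicates 2 and 3. For the 11 macrophage markers that exceeded 50 FPKM in LPS and stayed under 1% of the LPS mean in replicates 2 and 3, the excess of replicate 1 over those replicates was 2.13 to 3.50% of the LPS mean, with a median of 2.62%. The excess of Tnf in that library was 3.02% of the LPS mean and that of Tnfrsf1b was 2.73%. Results that rest on this library are given with and without it. In muscle, the macrophage sum was 237 FPKM in LPS-MIC-1 replicate 3, against 60.5 and 59.4 FPKM in replicates 1 and 2, 52.1 to 55.0 FPKM in LPS and 34.2 to 38.9 FPKM in control.

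**Figure D1:**
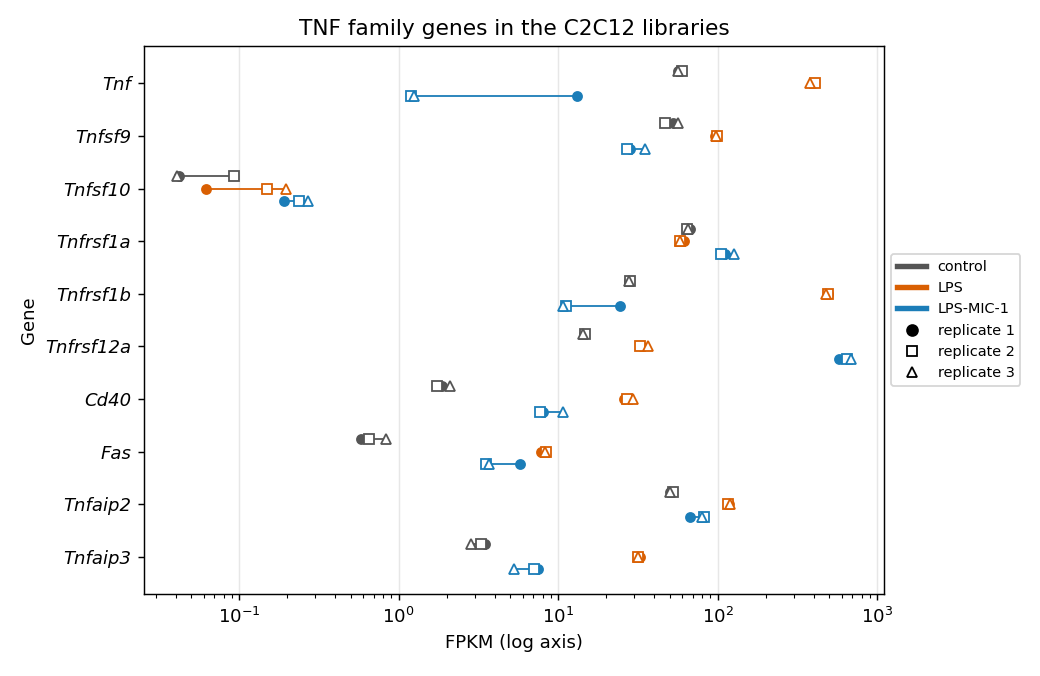
FPKM on a log axis of the 10 genes in the 9 C2C12 libraries, with 1 point per library and a line from the lowest to the highest of each group. Tnf and Tnfrsf1b reached 382 FPKM or more in LPS alone, Tnfrsf12a reached 581 FPKM or more in LPS-MIC-1 alone, and LPS-MIC-1 replicate 1 stood apart at 13.2 FPKM for Tnf.

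Tnf was among the most abundant of the 10 genes in the C2C12 control and LPS libraries. It was listed at 56.5, 59.9 and 56.4 FPKM in control, at 403, 407 and 382 FPKM in LPS and at 13.2, 1.19 and 1.24 FPKM in LPS-MIC-1. No group overlapped another, and the LPS libraries were the highest. The mean in LPS was 6.89 times that in control, a log2 fold change of 2.78 ± 0.80 (SE) with an adjusted p of 0.0154 by limma, which missed the threshold of 0.001. The spread in that fit came from LPS-MIC-1 replicate 1, and without that library the adjusted p was 3.17e-08. From LPS to LPS-MIC-1, Tnf fell by 7.12 on the log2 scale (SE 0.80, adjusted p 4.63e-05 by limma). Without replicate 1 that log2 fold change was -8.24 (adjusted p 1.32e-10). Against control, Tnf in LPS-MIC-1 was lower by a log2 fold change of -4.34 with an adjusted p of 0.00109, and without replicate 1 it fell by 5.45 (adjusted p 5.69e-10).

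In gastrocnemius, Tnf was at the edge of detection and lowest of the 10 genes in control and in LPS. Control libraries were listed at 0, 0 and 0.252 FPKM, LPS libraries at 0, 0 and 0.151 FPKM, and LPS-MIC-1 libraries at 0.840, 0.571 and 1.49 FPKM. These values lay on steps of whole reads, and the smallest read numbers they allowed were 0, 0 and 5 in control, 0, 0 and 3 in LPS and 17, 12 and 33 in LPS-MIC-1, each within 0.023 of a whole number. All 3 LPS-MIC-1 libraries were above all 6 others, and control and LPS overlapped. Tnf was under the filter, so its comparison comes from the fit of genes above 0 in at least 3 libraries. It entered that fit only through LPS-MIC-1, so its values are a description and no p-value is given. There the log2 fold change of LPS-MIC-1 against LPS was 2.88, and it was 2.55 without replicate 3, the library with the highest macrophage sum. With a pseudocount of 1 FPKM instead of 0.1 the same value was 0.88, below the fold limit. An increase of Tnf from control to LPS was not detectable at this depth.

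**Figure D2:**
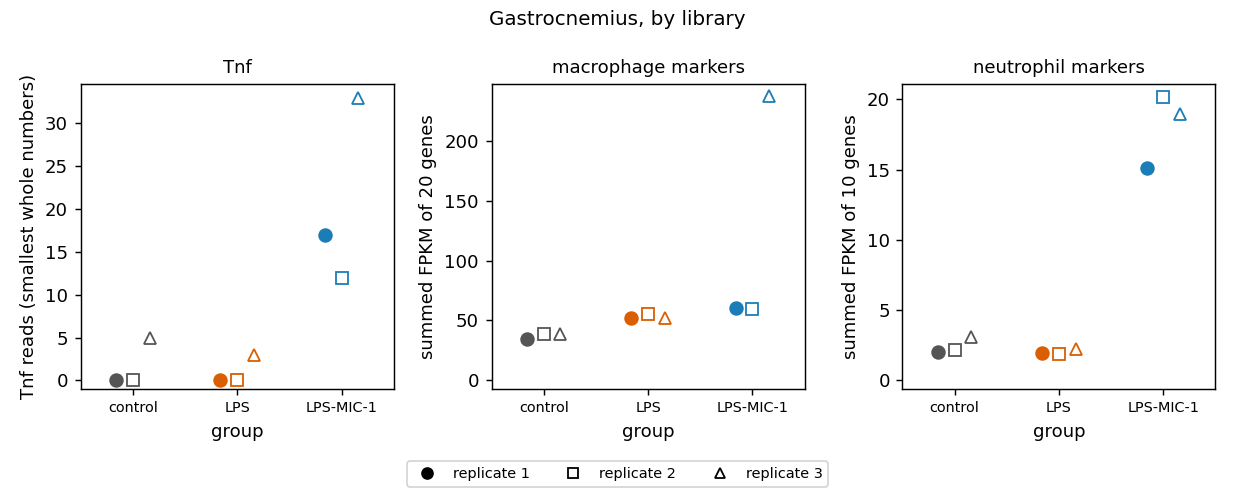
Gastrocnemius libraries by group, with Tnf as the smallest whole read numbers that its FPKM steps allow (left), the summed FPKM of 20 macrophage markers (middle) and of 10 neutrophil markers (right), 1 point per library. Tnf was at 12 to 33 reads in LPS-MIC-1 and at 0 to 5 reads in the 6 other libraries, and replicate 3 of LPS-MIC-1 held both the most Tnf reads and the highest macrophage sum, 237 FPKM.

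Some markers of other cell types moved with the muscle groups. Neutrophil markers, 10 of 11 found, summed to between 15.1 and 20.2 FPKM in LPS-MIC-1 and to between 1.86 and 3.06 FPKM in control and LPS, and the median of the list was 0.394 to 0.733 against 0 to 0.0897 FPKM. Of its defining genes, S100a8 was at 7.25 to 7.47 FPKM in LPS-MIC-1 and at 0 in 3 of the 6 other libraries, and S100a9 was at 0, 6.65 and 4.79 FPKM in LPS-MIC-1. Of the 9 intestinal epithelium markers, Lgals4 averaged 4.45 FPKM in LPS and 18.2 FPKM in LPS-MIC-1, while the median of the list was 0.133 to 0.201 FPKM in LPS and 0.0772 to 0.0871 FPKM in LPS-MIC-1. The 10 endothelial markers summed to between 109 and 113 FPKM in control, 70.1 and 73.6 FPKM in LPS and 111 and 127 FPKM in LPS-MIC-1. Within that list Cldn5 (5.64 and 31.5 FPKM) and Esam (12.2 and 25.7 FPKM) were higher on average in LPS-MIC-1 than in LPS, whereas Kdr (5.07 and 2.59 FPKM), Flt1 (3.90 and 3.11 FPKM) and Vwf (0.814 and 0.368 FPKM) were lower. The muscle fibre markers, led by Acta1 and Ckm, summed to between 209560 and 288533 FPKM in all 9 libraries, as the label gastrocnemius implies. The part of these cells in the muscle values below was not tested.

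Tnfsf9, the ligand of the T cell receptor 4-1BB, was an abundant transcript in the libraries labelled C2C12. Its levels were 52.9, 46.9 and 56.5 FPKM in control, 96.5, 99.5 and 98.2 FPKM in LPS and 28.2, 27.1 and 35.3 FPKM in LPS-MIC-1. LPS libraries were highest and LPS-MIC-1 libraries lowest, with no overlap. From LPS to LPS-MIC-1 it fell by 1.71 on the log2 scale (SE 0.11, adjusted p 1.1e-06 by limma). The log2 fold changes of LPS against control, 0.91 with an adjusted p of 0.000115, and of LPS-MIC-1 against control, -0.79 with an adjusted p of 0.000162, passed the p threshold and were under the fold limit. In muscle its highest library held 0.646 FPKM, for which the smallest read number allowed was 9, and the 3 groups overlapped.

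Tnfsf10, the death ligand TRAIL, was the reverse of Tnfsf9 in where it was seen. In C2C12 its highest library held 0.271 FPKM, and the smallest read numbers that its values allowed were 4 to 20 over the 9 libraries. In muscle it was listed at 2.96, 2.75 and 3.31 FPKM in control, 2.05, 1.93 and 2.08 FPKM in LPS and 1.23, 1.55 and 1.13 FPKM in LPS-MIC-1. The 3 groups did not overlap, with control highest and LPS-MIC-1 lowest. From control to LPS-MIC-1 Tnfsf10 fell by 1.15 on the log2 scale (SE 0.14, adjusted p 0.000161 by limma), and with a pseudocount of 1 FPKM the value was -0.80, under the fold limit. The log2 fold changes of LPS against control, -0.54 with an adjusted p of 0.0335, and of LPS-MIC-1 against LPS, -0.61 with an adjusted p of 0.00587, were also under it.

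**Figure D3:**
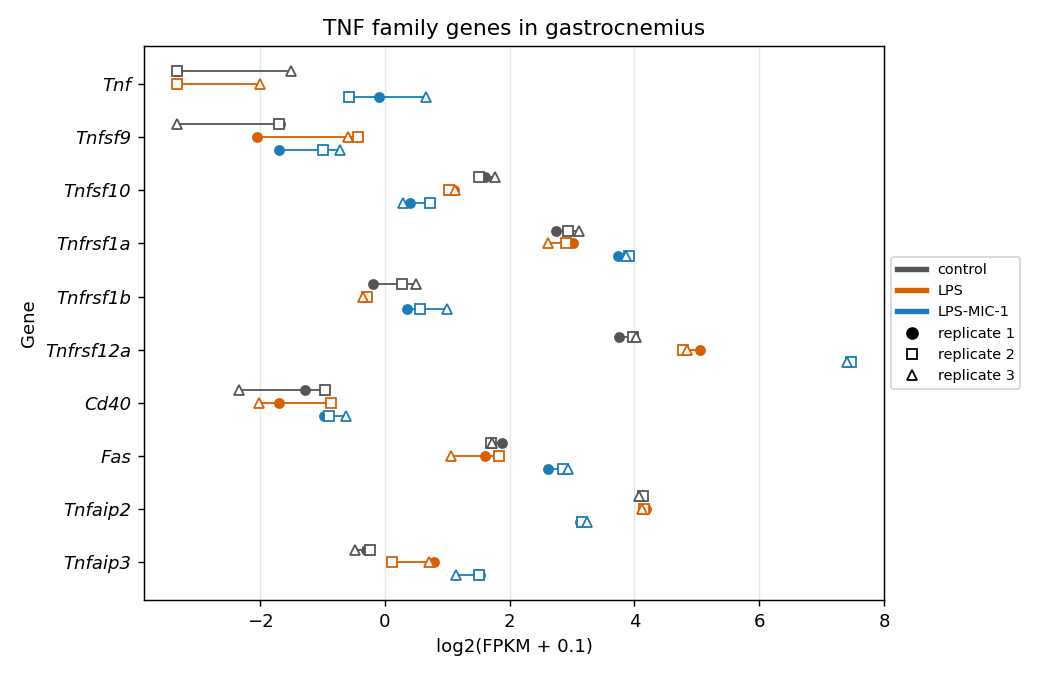
log2(FPKM + 0.1) of the 10 genes in the 9 gastrocnemius libraries, with 1 point per library and a line from the lowest to the highest of each group. Tnfrsf12a in LPS-MIC-1, at 169 to 176 FPKM, was far above the other genes, and Tnf, Tnfsf9 and Cd40 lay under 1 FPKM except for Tnf in LPS-MIC-1 replicate 3, at 1.49 FPKM.

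The 2 TNF receptors differed in C2C12. Tnfrsf1b, which encodes TNFR2, was listed at 27.9, 28.1 and 27.8 FPKM in control, at 495, 491 and 476 FPKM in LPS and at 24.3, 11.2 and 10.8 FPKM in LPS-MIC-1. It rose 17.5 times from control to LPS (log2 fold change 4.12 ± 0.27 SE, adjusted p 4.87e-06 by limma) and fell by 5.08 on the log2 scale from LPS to LPS-MIC-1 (adjusted p 4.69e-07), so that LPS stood apart from both other groups. The log2 fold change of LPS-MIC-1 against control was -0.96 with an adjusted p of 0.0114, and without replicate 1 it fell by 1.33 (adjusted p 6.99e-08). Tnfrsf1a, which encodes TNFR1, was listed at 67.1, 64.4 and 65.1 FPKM in control, 62.0, 57.9 and 58.1 FPKM in LPS and 111, 105 and 127 FPKM in LPS-MIC-1. Here the LPS libraries were lowest and the LPS-MIC-1 libraries highest. The log2 fold change of LPS against control was -0.14 (95% confidence interval -0.31 to 0.02, adjusted p 0.112). That of LPS-MIC-1 against LPS was 0.94 with an adjusted p of 3.69e-06, under the fold limit, and it reached 1.00 without replicate 2. In FPKM, TNFR2 transcripts went from below TNFR1 transcripts in control to the most abundant of the 10 genes in LPS, and they were again below TNFR1 in LPS-MIC-1.

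Muscle held far fewer TNFR2 than TNFR1 transcripts. Tnfrsf1a was listed at 6.62, 7.53 and 8.58 FPKM in control, 7.98, 7.41 and 6.00 FPKM in LPS and 13.2, 15.0 and 14.4 FPKM in LPS-MIC-1. LPS-MIC-1 lay above both other groups, which overlapped. Its log2 fold change against LPS was 0.99 ± 0.13 (SE) with an adjusted p of 0.000217 by limma, just under the fold limit, and it passed that limit with a pseudocount of 0.01 FPKM (1.00) and without LPS replicate 1 (1.08), LPS replicate 2 (1.02) or LPS-MIC-1 replicate 1 (1.04). LPS against control gave -0.09 (95% confidence interval -0.38 to 0.20, adjusted p 0.692). Tnfrsf1b was listed at 0.776, 1.11 and 1.31 FPKM in control, 0.705, 0.722 and 0.684 FPKM in LPS and 1.18, 1.39 and 1.89 FPKM in LPS-MIC-1, where replicate 3 was again the highest. It passed the filter only through its LPS-MIC-1 level, so its comparisons with that group are a description. LPS libraries were the lowest. Its log2 fold change of LPS-MIC-1 against LPS was 0.95, and 0.94 to 1.10 with single libraries left out. That range does not cover LPS-MIC-1 replicate 3, without which Tnfrsf1b was under the filter and not tested. Its log2 fold change of LPS against control was -0.51 (95% confidence interval -1.08 to 0.06, adjusted p 0.214 by limma).

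Tnfrsf12a, the TWEAK receptor Fn14, was the gene of the 10 with the highest level in LPS-MIC-1 in both experiments. In C2C12 it was listed at 14.5, 14.7 and 14.2 FPKM in control, 33.2, 32.7 and 36.7 FPKM in LPS and 581, 647 and 683 FPKM in LPS-MIC-1. It rose 2.36 times from control to LPS (log2 fold change 1.23 ± 0.07 SE, adjusted p 2.09e-06 by limma) and 18.6 times from LPS to LPS-MIC-1 (4.21 ± 0.07, adjusted p 2.95e-09). In muscle it was listed at 13.4, 15.6 and 16.2 FPKM in control, 32.9, 27.3 and 28.6 FPKM in LPS and 173, 176 and 169 FPKM in LPS-MIC-1. The order was the same, with no overlap between groups in either experiment. From LPS to LPS-MIC-1 in muscle it rose 5.84 times (2.55 ± 0.08, adjusted p 7.53e-08), and from control to LPS-MIC-1 it rose 11.5 times (3.52 ± 0.08, adjusted p 1.03e-08). The log2 fold change of LPS against control in muscle was 0.97 with an adjusted p of 0.000237, under the fold limit, and it passed that limit at 1.02 without control replicate 3 and at 1.03 without LPS replicate 2. The control levels of Tnfrsf12a, 14.5 FPKM in C2C12 and 15.1 FPKM in muscle on average, were close, but the 2 tables were normalized separately and that likeness was not tested.

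Cd40, a receptor through which T cells activate macrophages and B cells, and the death receptor Fas had a similar course in C2C12. Cd40 was listed at 1.87, 1.75 and 2.10 FPKM in control, 26.1, 27.1 and 29.6 FPKM in LPS and 7.99, 7.65 and 10.7 FPKM in LPS-MIC-1. It rose 14.5 times with LPS (log2 fold change 3.79 ± 0.14 SE, adjusted p 2.33e-07 by limma), fell by 1.66 on the log2 scale from LPS to LPS-MIC-1 (adjusted p 6.95e-06) and was 4.61 times the control in LPS-MIC-1 (adjusted p 1.61e-06). LPS-MIC-1 libraries lay between control and LPS. Fas was listed at 0.578, 0.647 and 0.828 FPKM in control, 7.78, 8.39 and 8.26 FPKM in LPS and 5.73, 3.54 and 3.68 FPKM in LPS-MIC-1, again with LPS-MIC-1 in between. It rose 11.9 times with LPS (3.41 ± 0.20, adjusted p 2.74e-06), and its level in LPS-MIC-1 was 6.31 times the control (adjusted p 7.26e-06). Its log2 fold change of LPS-MIC-1 against LPS was -0.93 with an adjusted p of 0.00256, and without replicate 1 it fell by 1.15 (adjusted p 0.000204).

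In muscle, Fas passed the filter and Cd40 did not. Fas was listed at 3.57, 3.16 and 3.19 FPKM in control, 2.95, 3.44 and 1.99 FPKM in LPS and 6.04, 7.17 and 7.51 FPKM in LPS-MIC-1. From LPS to LPS-MIC-1 it rose by 1.30 on the log2 scale (SE 0.19, adjusted p 0.00042 by limma), and control and LPS overlapped (log2 fold change -0.27, 95% confidence interval -0.69 to 0.16). Against control it rose by 1.04 (adjusted p 0.0015), a call that was lost with a pseudocount of 1 FPKM, with quantile normalization, with the p threshold of 0.001 and without LPS-MIC-1 replicate 3. Cd40 stayed under 1 FPKM in all 9 muscle libraries, from 0.0991 to 0.554 FPKM, and the LPS-MIC-1 libraries overlapped with both other groups. Its difference of LPS-MIC-1 against LPS was 0.69, with an adjusted p of 0.234 in the fit without the filter.

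Tnfaip3, the A20 gene, was listed in C2C12 at 3.46, 3.27 and 2.86 FPKM in control, 32.9, 31.9 and 31.6 FPKM in LPS and 7.53, 7.08 and 5.28 FPKM in LPS-MIC-1. It rose 10.05 times with LPS (log2 fold change 3.29 ± 0.14 SE, adjusted p 4.59e-07 by limma) and fell by 2.28 on the log2 scale from LPS to LPS-MIC-1 (adjusted p 8.93e-07). LPS-MIC-1 libraries were above control, with a log2 fold change of 1.02 (adjusted p 0.000164) at the fold limit. The value was under it with a pseudocount of 1 FPKM (0.85) and without control replicate 3 (0.94), LPS-MIC-1 replicate 1 (0.92) or LPS-MIC-1 replicate 2 (0.96), and the adjusted p was 0.00183 when the 6 libraries compared were fitted alone. Muscle levels of Tnfaip3 were 0.708, 0.754 and 0.621 FPKM in control, 1.64, 0.980 and 1.53 FPKM in LPS and 2.77, 2.75 and 2.11 FPKM in LPS-MIC-1. Here the LPS-MIC-1 libraries were the highest, and no group overlapped another. From control to LPS-MIC-1 Tnfaip3 rose by 1.73 on the log2 scale (SE 0.22, adjusted p 0.000208), while LPS against control, at 0.87 with an adjusted p of 0.0302, and LPS-MIC-1 against LPS, at 0.86 with an adjusted p of 0.01, were under the fold limit. LPS against control passed it, at 1.09, without LPS replicate 2.

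Tnfaip2, the other TNF-induced gene, was the more abundant of the pair in every group. C2C12 levels were 50.2, 52.6 and 50.6 FPKM in control, 118, 116 and 120 FPKM in LPS and 66.8, 82.6 and 79.7 FPKM in LPS-MIC-1, which lay in between. It rose 2.31 times with LPS (log2 fold change 1.20 ± 0.08 SE, adjusted p 3.73e-06 by limma), and the value of LPS-MIC-1 against LPS was -0.63 with an adjusted p of 7.28e-05, under the fold limit. Muscle levels were 17.3, 17.5 and 16.7 FPKM in control, 18.1, 17.7 and 17.3 FPKM in LPS and 8.68, 8.87 and 9.30 FPKM in LPS-MIC-1. LPS-MIC-1 libraries were all below the 6 others. The log2 fold change against LPS was -0.98 ± 0.04 (SE, adjusted p 4.98e-07), just under the fold limit and past it without LPS-MIC-1 replicate 3 and with quantile normalization (-1.10), and LPS against control gave 0.04 (95% confidence interval -0.06 to 0.15). Tnfaip2 was thus the most abundant of the 10 genes in control muscle and ranked below Tnfrsf12a and Tnfrsf1a in LPS-MIC-1 muscle.

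**Figure D4:**
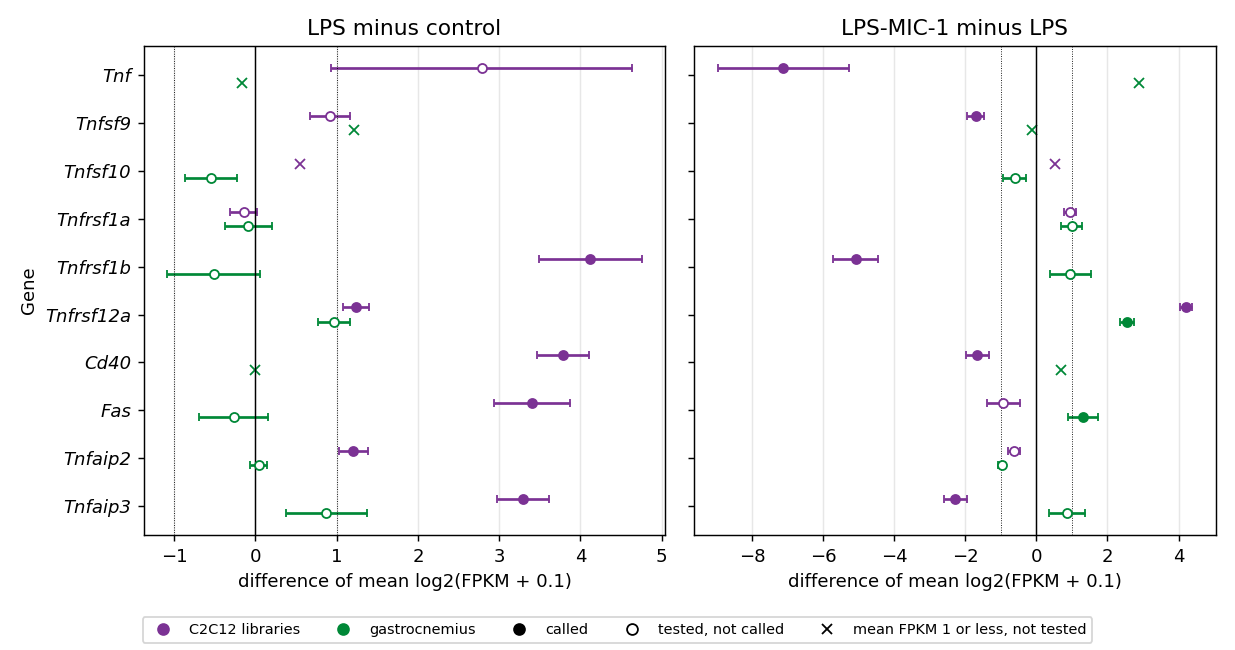
Difference of mean log2(FPKM + 0.1) with its 95% confidence interval for LPS minus control (left) and LPS-MIC-1 minus LPS (right), in C2C12 and in gastrocnemius, with filled points for called genes, open points for tested genes not called and crosses for genes under the filter. In C2C12, 6 genes were called higher in LPS, and in LPS-MIC-1 5 were called lower and Tnfrsf12a higher, while in gastrocnemius no gene was called in LPS against control and Fas and Tnfrsf12a were called higher in LPS-MIC-1 against LPS.

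Counted over the set, LPS against control in C2C12 called 6 of the 9 genes tested higher and 0 lower, where 10.9% of all 10877 genes tested were called higher and 10.0% lower. The 6 were Tnfrsf1b, Tnfrsf12a, Cd40, Fas, Tnfaip2 and Tnfaip3, and the median log2 fold change of the 9 genes was 2.78, against 0 over all genes. Tnfsf9 passed the p threshold but not the fold limit (0.91), and Tnf passed the fold limit with an adjusted p of 0.0154 by limma. LPS-MIC-1 against LPS called 1 higher (Tnfrsf12a) and 5 lower (Tnf, Tnfsf9, Tnfrsf1b, Cd40 and Tnfaip3), where 24.3% of all genes were called higher and 25.6% lower, and the median was -1.66 against -0.05. LPS-MIC-1 against control called 4 higher (Tnfrsf12a, Cd40, Fas and Tnfaip3) and 0 lower, where 21.1% of all genes were called higher and 22.1% lower, with a median of 0.80 against -0.06. These comparisons share libraries, so their values are set side by side without a test of overlap.

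In muscle, LPS against control called none of the 7 genes tested by limma, where 0.654% of all 9475 genes were called higher and 0.591% lower. An adjusted p under 0.05 at a smaller fold was reached by Tnfaip3, Tnfsf10 and Tnfrsf12a, and the median log2 fold change was -0.09 against 0.01 over all genes. LPS-MIC-1 against LPS called 2 higher (Tnfrsf12a and Fas) and 0 lower, where 9.67% of all genes were called higher and 5.44% lower. The remaining genes tested passed the p threshold but not the fold limit. They include Tnfrsf1b, which passed the filter only through its LPS-MIC-1 level. The share of all genes that passed that threshold at any fold was not computed. LPS-MIC-1 against control called 3 higher (Tnfrsf12a, Fas and Tnfaip3) and 1 lower (Tnfsf10), where 9.33% of all genes were called higher and 6.12% lower. The medians were 0.95 and 0.90, against -0.01 and 0.01 over all genes. The median of 0.95 is the value of Tnfrsf1b, so these medians are a description. With quantile normalization the higher share of all calls in LPS-MIC-1 against LPS was 53.9% instead of 64.0%, and the median over all genes moved to -0.12.

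The binding partners of these genes were read beside them, outside the rule for named genes and with their values seen. Tnfsf12, which encodes TWEAK, the ligand of Tnfrsf12a, averaged 6.60 FPKM in control, 13.3 FPKM in LPS and 23.6 FPKM in LPS-MIC-1 in C2C12, and it rose from control to LPS-MIC-1 (log2 fold change 1.80, adjusted p 4.99e-06 by limma). In muscle Tnfsf12 went the other way to its receptor, from 10.3 FPKM in control through 6.81 FPKM in LPS to 2.66 FPKM in LPS-MIC-1, and it fell by 1.33 from LPS to LPS-MIC-1 (adjusted p 1.66e-05). Tnfrsf9, the 4-1BB receptor of Tnfsf9, averaged 1.15 FPKM in C2C12 control, 38.0 FPKM in LPS and 3.92 FPKM in LPS-MIC-1, a rise of 33.1 times with LPS (adjusted p 1.46e-07). Tnfrsf10b, a mouse receptor of Tnfsf10, rose in C2C12 from 1.89 FPKM in control to 5.31 FPKM in LPS (adjusted p 6.2e-06) and to 14.6 FPKM in LPS-MIC-1, while Tnfsf10 itself was near 0 there. Fasl, the ligand of Fas, was listed at 0 in all 9 C2C12 libraries and in 8 of the 9 muscle libraries, and Cd40lg, the ligand of Cd40, was at 0 in 8 of the 9 C2C12 and all 9 muscle libraries.

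The wider superfamily was read from lists that hold the 10 genes as well. The list given as TNF-induced genes holds genes with Tnfaip in their symbol, among them Tnfaip8l1 and Tnfaip8l2. Its counts are therefore not a measure of the response to TNF. In C2C12, LPS against control called 9 of 17 receptors tested higher and 0 lower, 1 of 7 ligands higher and 1 lower, 3 of 32 receptor signalling genes higher and 1 lower, 2 of 6 TNF-induced genes higher and 0 lower, and 2 of 9 genes of TNF production higher and 1 lower. Over all genes, 10.9% were called higher and 10.0% lower, so the ligand and signalling counts were near the share of all genes. Beside Tnfrsf9, the receptor gene Tnfrsf26 rose from 8.51 to 62.5 FPKM, the A20-binding protein gene Tnip1 from 27.9 to 79.7 FPKM, and Rhbdf2, which helps the TNF sheddase mature, from 24.2 to 81.8 FPKM. LPS-MIC-1 against LPS called 5 of 17 receptors higher and 6 lower, 1 of 7 ligands higher and 3 lower, 2 of 32 signalling genes higher and 11 lower, 0 of 6 TNF-induced genes higher and 3 lower, and 1 of 9 genes of TNF production higher and 5 lower, beside 24.3% higher and 25.6% lower of all genes. Among them Ltb, the lymphotoxin gene next to Tnf, fell from 4.05 to 0.0201 FPKM, Birc3, an inhibitor of apoptosis that binds TNF receptor complexes, from 33.0 to 0.491 FPKM, and Adam17, the TNF sheddase, from 28.8 to 3.08 FPKM. Zfp36, whose product destabilises Tnf mRNA, fell from 1006 to 37.7 FPKM. Against control, LPS-MIC-1 had 9 receptors higher and 3 lower, 1 ligand higher and 1 lower, 3 signalling genes higher and 6 lower, 1 TNF-induced gene higher and 2 lower, and 1 gene of TNF production higher and 5 lower, beside 21.1% and 22.1% of all genes. Ripk1, the kinase of TNFR1 signalling, was listed at 0 in all 3 LPS libraries and Traf1 in all 9, which in a file without counts can be a failed estimate. Ripk1, Tnfrsf22, Ngfr and Tnfrsf4 passed the filter only through their LPS-MIC-1 level, Lta only through LPS and Tnfsf13b only through control. Without those 6 genes, LPS against control had 0 ligands higher, LPS-MIC-1 against LPS had 3 receptors and 1 signalling gene higher, and LPS-MIC-1 against control had 7 receptors and 2 signalling genes higher.

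Muscle gave fewer calls in the same lists. LPS against control called 0 of 3 ligands, 0 of 15 receptors, 0 of 26 signalling genes, 0 of 3 TNF-induced genes and 0 of 8 genes of TNF production by limma. Some genes of each list had an unadjusted p under 0.05, a limit at which the share of all genes was not computed. LPS-MIC-1 against LPS called 3 of 15 receptors higher and 2 lower, 1 of 3 ligands lower, 4 of 26 signalling genes higher and 1 lower, no TNF-induced gene and 4 of 8 genes of TNF production higher. Over all genes 9.67% were called higher and 5.44% lower, so counts of a few genes in the receptor and signalling lists are not far from that share. Cd27, a receptor of lymphocytes, rose from 1.96 to 13.4 FPKM, and Relt, another receptor of the family, fell from 7.63 to 2.47 FPKM. Tnip2, a further A20-binding protein gene, rose from 2.03 to 9.74 FPKM. Zfp36 rose from 8.87 to 66.1 FPKM (log2 fold change 2.89, adjusted p 1.81e-08), and Litaf, which encodes an LPS-induced factor of TNF transcription, rose from 1.98 to 9.46 FPKM. Against control, LPS-MIC-1 had 3 ligands lower and none higher, 3 receptors higher and 2 lower, 5 signalling genes higher and 1 lower, 1 TNF-induced gene higher and 4 genes of TNF production higher, beside 9.33% and 6.12% of all genes.

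**Figure D5:**
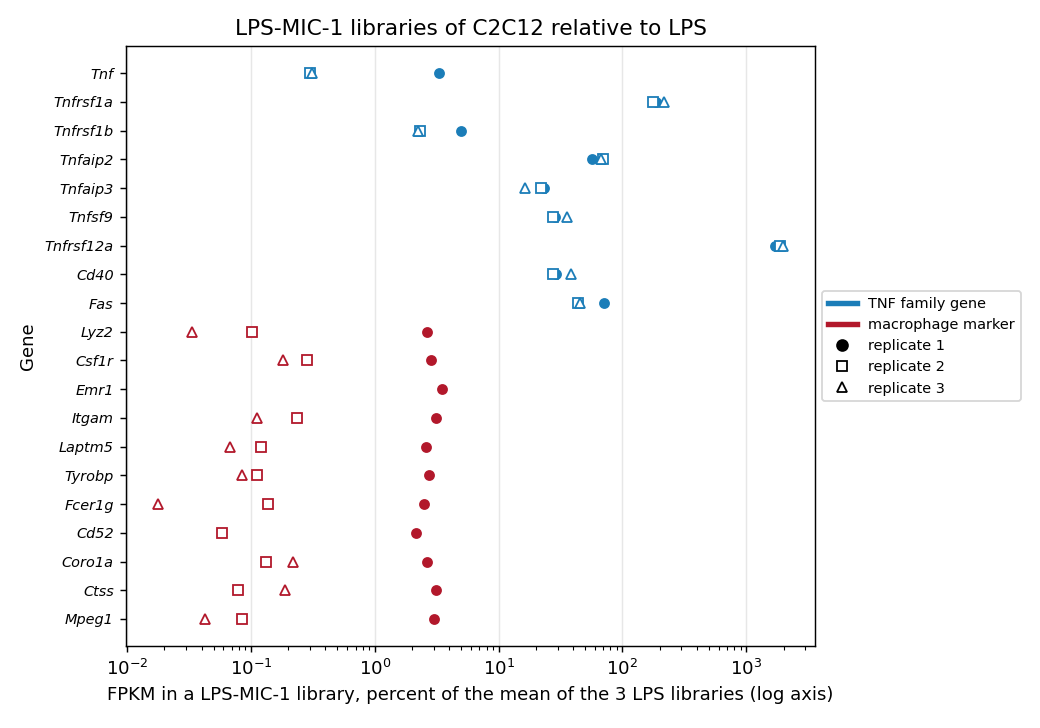
FPKM in each LPS-MIC-1 library of C2C12 as a percentage of the mean of the 3 LPS libraries, on a log axis, for 9 of the 10 genes and the 11 macrophage markers (libraries at 0 are not drawn). Replicate 1 sat at about the same few percent for the macrophage markers and for Tnf, whereas the other replicates of Tnf were near 0.3%.

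In the C2C12 LPS-MIC-1 libraries the genes differed in their level relative to LPS, where cell type and treatment cannot be told apart. Tnf in replicates 2 and 3 was at 1.19 and 1.24 FPKM, and the macrophage marker Csf1r was at 0.506 and 0.320 FPKM there. Fas, Cd40, Tnfsf9 and Tnfaip3 were not near 0 in those replicates, at 3.54 and 3.68, 7.65 and 10.7, 27.1 and 35.3, and 7.08 and 5.28 FPKM. The excess of replicate 1 as a share of the LPS mean was 4.20% for Tnfaip3 and 26.0% for Fas, above the marker range for both, and -4.24% for Cd40 and -3.07% for Tnfsf9. Replicate 1 was thus higher than the others for Tnf, Tnfrsf1b and Fas, and it was not for Cd40 and Tnfsf9. For Tnfaip3, replicate 1 at 7.53 FPKM was near replicate 2 at 7.08 FPKM. Its excess there came mostly from the low replicate 3, at 5.28 FPKM. What carried these transcripts in replicate 1 was not tested.

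Genes whose pattern was most like that of 3 of the members were found by Pearson's r of log2(FPKM + 0.1) over the 9 libraries of an experiment, as a description, since those points share 3 groups. In C2C12 the genes most like Tnf were Csf2rb2, Mcoln2 and Clec4e (r 0.9994, 0.9983 and 0.9979), those most like Tnfaip3 were Pde4b, Plk2 and 1810013L24Rik (0.9984, 0.9977 and 0.9975), and those most like Tnfrsf12a were Tubb2a, Maged1 and Fstl3 (0.999, 0.9988 and 0.9988). In muscle Tnfrsf12a was closest to Odc1, Jmy and Ubr2 (0.9982, 0.9974 and 0.9972), with 65 genes above an r of 0.99. Tnfaip3 was closest there to Map4k5 and Klhl34 (0.9921 and 0.9889), with 1 gene above 0.99.

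Ordered by mean FPKM, the C2C12 control libraries held Tnfrsf1a (65.6 ± 1.37, SD, n = 3) first, then Tnf (57.6 ± 1.97), Tnfsf9 (52.1 ± 4.83) and Tnfaip2 (51.1 ± 1.28), of which Tnf, Tnfsf9 and Tnfaip2 overlapped with their neighbours in the order. In LPS the order was led by Tnfrsf1b (487 ± 10.2) and Tnf (397 ± 13.7), and in LPS-MIC-1 by Tnfrsf12a (637 ± 52.0) and Tnfrsf1a (115 ± 11.6). Control muscle was led by Tnfaip2 (17.2 ± 0.41) and Tnfrsf12a (15.1 ± 1.44). LPS muscle was led by Tnfrsf12a (29.6 ± 2.90) and Tnfaip2 (17.7 ± 0.37), and LPS-MIC-1 muscle by Tnfrsf12a (173 ± 3.61) and Tnfrsf1a (14.2 ± 0.95). The last place was held by Tnfsf10 in every C2C12 group, and by Tnf in control and LPS muscle, where it overlapped with the gene above it.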

How the data were processed

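Gene expression was read from the FPKM tables that the authors deposited, 1 for C2C12 and 1 for gastrocnemius. The authors pseudoaligned reads with kallisto and summarised transcripts per gene with tximport. The submitters' processing notes name the genome build mm9. FPKM carries no counts, so a total per library was not available. Comparing the FPKM that 1 read was worth in low genes gave each library's depth relative to control replicate 1: 0.464 to 1.02 in C2C12, where LPS-MIC-1 replicate 3 was the shallowest, and 0.988 to 1.11 in muscle. Depth thus limits genes under about 1 FPKM most. Tables with the authors' own DESeq2 fold changes and p-values were not used. The muscle table held 9 more columns of values that matched no label, and these were not used either.

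Libraries were grouped by their labels. Values were transformed to log2(FPKM + 0.1), and genes with a mean over 1 FPKM in an experiment were fitted with limma 3.58.1 in R 4.3.3 (3 group means over 9 libraries, eBayes with trend, Benjamini-Hochberg over 10877 genes in C2C12 and 9475 in muscle). The study used DESeq2 on counts, which the deposited FPKM unit does not allow. The fit was tested on simulated data. Genes under the filter were described from a fit of genes above 0 in at least 3 libraries, with the other settings added after seeing the data. Alternatives were pseudocounts of 1 and 0.01 FPKM, no filter, a mean over 5 FPKM, a fit of the 6 libraries of a comparison alone, eBayes with no trend, quantile normalization, scaling by median ratios, a replicate block, the p threshold of the other experiment, and leaving out each library. Figures were drawn with matplotlib 3.10.9.

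The named genes were the 10 members, up to 2 other called genes of each list and comparison with the largest non-overlapping change, of which some are given, marker genes, and the 3 genes most correlated with Tnf, Tnfaip3 and Tnfrsf12a where tested. Members and lists were chosen with earlier results of these data known. Gene order was taken from RefSeq for GRCm38.p6, in which all 10 symbols matched, without coordinates. A search of promoter sequence was not run here.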

Additional observations from a re-analysis of the deposited data

Results flagged for a closer look

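For some of the 10 genes the difference between the same groups had opposite signs in C2C12 and in muscle. In these, every library of one group lay on one side of every library of the other in each experiment. The share of all genes that met this rule was not computed, so nothing particular to these genes follows from it. The 2 tables were normalized separately, so the difference between experiments was not tested. All values are differences of mean log2(FPKM + 0.1), and each group had 3 libraries, too few for a search for outlying libraries.

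For LPS minus control, Tnfrsf1b was 4.12 in C2C12 and -0.51 in muscle. For LPS-MIC-1 minus LPS, Tnf was -7.12 in C2C12 and 2.88 in muscle, Tnfrsf1b was -5.08 and 0.95, Tnfaip3 was -2.28 and 0.86, and Fas was -0.93 and 1.30. For LPS-MIC-1 minus control, Tnf was -4.34 in C2C12 and 2.72 in muscle, Tnfaip2 was 0.57 and -0.93, and Tnfsf10 was 1.08 and -1.15. For Tnfsf10 in C2C12 the smallest read numbers allowed were 4 to 20 per library. Its C2C12 value was -0.14 (adjusted p 0.681 by limma) under quantile normalization, so its sign depended on the scaling. For Tnf in muscle the smallest read numbers allowed were 0 to 33. Macrophage markers were lower in the LPS-MIC-1 libraries than in the LPS libraries of C2C12, at 90.0 to 321 against 8570 to 8834 FPKM in sum. The sum was 60.5 and 59.4 FPKM in muscle LPS-MIC-1 replicates 1 and 2 and 237 FPKM in replicate 3, against 52.1 to 55.0 FPKM in muscle LPS. In replicates 1 and 2 the marker genes Lyz2 (5.27 and 3.93 against 8.31 to 9.65 FPKM) and Csf1r (0.666 and 1.13 against 1.18 to 1.69 FPKM) were lower than in LPS. In the same replicates Cd14 (3.39 and 3.74 against 0.395 to 0.599 FPKM) and Mpeg1 (1.44 and 1.58 against 0.247 to 0.393 FPKM) were higher than in LPS. Fcer1g (16.5 and 15.5 against 6.50 to 7.95 FPKM) was higher as well. Macrophage markers thus went both ways there. Their part in these differences was not tested.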

How the results depend on the processing

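The number of called genes stayed within 1.5 times the reported one in 107 of the alternatives and moved further in 7, and the cause was not tested. In muscle, LPS against control went from 0 called to between 0 and 2 when each library was left out, with 1 (Tnfrsf12a) without control replicate 3 and 2 (Tnfrsf12a and Tnfaip3) without LPS replicate 2. LPS-MIC-1 against LPS went from 2 to 4 with a pseudocount of 0.01 FPKM, to 1 with a mean over 5 FPKM, where fewer genes are tested, and to between 2 and 4 when each library was left out, with 4 without LPS-MIC-1 replicate 1. LPS-MIC-1 against control went from 4 to 2 with a pseudocount of 1 FPKM and to 1 with a mean over 5 FPKM. In C2C12 the ranges without each library were 6 to 7, 6 to 7 and 3 to 5, for LPS against control, LPS-MIC-1 against LPS and LPS-MIC-1 against control, and that of muscle LPS-MIC-1 against control was 3 to 4. Calls in the superfamily lists went from 20 to 31 with the muscle p threshold in C2C12 LPS against control, and with a mean over 5 FPKM from 15 to 9 and from 19 to 10 in the 2 muscle comparisons of LPS-MIC-1, against LPS and control. Over all muscle genes, a mean over 5 FPKM took the higher and lower calls from 62 and 56 to 31 and 26 in LPS against control, from 916 and 515 to 452 and 204 in LPS-MIC-1 against LPS, and from 884 and 580 to 462 and 215 in LPS-MIC-1 against control. Of the member fold changes, 1043 kept direction and side of the threshold, 23 gained a call, 14 lost one and 16 uncalled values moved. Tnfsf10 in C2C12, with smallest read numbers of 4 to 20, turned from 1.08 to -0.14 under quantile normalization for LPS-MIC-1 against control.

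Replicate numbers did not pair the libraries. Deviations of same-numbered libraries from their group means correlated between -0.0757 and 0.0573 in C2C12 and between -0.054 and 0.0823 in muscle over 9 pairs each. With the replicate block the called genes numbered 6, 6 and 4 in C2C12 and 0, 2 and 4 in muscle, in the order LPS against control, LPS-MIC-1 against LPS and LPS-MIC-1 against control.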

Other observations

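Genes that lie next to the members in the RefSeq order of the mouse genome had their own courses. Tnf lies between Ltb and Lta, which encode lymphotoxins. In C2C12, Ltb averaged 8.88 ± 0.84 FPKM (SD, n = 3) in control, 4.05 ± 0.49 FPKM in LPS and 0.0201 ± 0.035 FPKM in LPS-MIC-1, so it was highest in control where Tnf was highest in LPS. Lta averaged 0.254 ± 0.084 FPKM in control, 1.94 ± 0.38 FPKM in LPS and 0.867 ± 0.43 FPKM in LPS-MIC-1. Its overall mean passed the filter only through LPS, so no test is given. In muscle Ltb and Lta each averaged under 0.36 FPKM in every group.

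Fas lies next to Acta2, the smooth muscle actin gene, which averaged 0.179 FPKM in C2C12 control, 1.40 FPKM in LPS and 317 FPKM in LPS-MIC-1, and 19.7, 14.7 and 6.48 FPKM in the same groups of muscle. Tnfrsf12a lies next to Hcfc1r1, which averaged 35.7, 61.0 and 157 FPKM in C2C12 and 168, 157 and 158 FPKM in muscle. Perp, a p53 target next to Tnfaip3, averaged 0.472, 1.67 and 1.80 FPKM in muscle control, LPS and LPS-MIC-1. These neighbours were chosen by position, and their differences were not tested here.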
